A study of Sus scrofa with 11 samples.

Results

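Single pig blastocysts that came from BCB- oocytes were compared with single blastocysts from BCB+ oocytes, whether or not the BCB- oocyte had been given extra mitochondria. The arrays were sorted by their titles and by the staining given for each. The BCB- side pooled 7 arrays, 3 from the ICSI BCB- group and 4 from the mICSI BCB- group, and the BCB+ side was the 4 arrays of the ICSI BCB+ group, so that all 11 arrays of the series were used. A free-text description of the mICSI group names BCB+ oocytes, whereas its titles and staining entries give BCB-, and the titles and entries were followed. Oocytes of all 3 groups were aspirated from the follicles of abattoir ovaries, held for 60 min in the dye and divided by colour, matured for 44 h, injected with a sperm at metaphase II and cultured to day 7. Sperm alone was injected in both ICSI groups, and in the mICSI group a mitochondrial isolate prepared from BCB+ metaphase II oocytes went in with the sperm. The study also gave mitochondria to BCB+ oocytes, but no blastocyst from these was on the arrays. The pooled comparison therefore holds supplementation on the BCB- side alone. Oocytes that stopped before the blastocyst stage were not sampled. Each array held the RNA of 1 blastocyst, and nothing in the labels says which blastocysts shared an ovary, a sperm donor or a culture, so the p-values below measure the spread among these blastocysts.

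Brilliant cresyl blue (BCB) is a dye that glucose-6-phosphate dehydrogenase, the enzyme that opens the pentose phosphate pathway, turns colourless. The enzyme is active while an oocyte grows and declines as growth ends, so a fully grown oocyte stays blue (BCB+) and a growing one loses the colour (BCB-). BCB- pig oocytes carry fewer copies of mitochondrial DNA and form blastocysts less often. A blastocyst consists of an outer trophectoderm, which forms the placenta, and an inner cell mass, which forms the embryo proper. By that stage the embryo has passed from transcripts stored in the oocyte to those of its own genome, and replication of mitochondrial DNA, halted during cleavage, has resumed. In whole blastocysts, fewer cells of a type and less RNA per cell cannot be told apart.

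The arrays carried 43795 non-control probes that were identified by number alone. None of these numbers matched the pig gene tables used here (0 matches), so that no gene, pathway or cell type could be named, and the blastocyst identity of the samples was not checked against marker genes. Of these, 42 probes with an outlier mark on some array were left out and 33149 were bright enough to be tested. A level is given as the log2 of the quantile-normalised signal, and a difference of 1 on this scale is a 2-fold change. The share of probes well above background, the scanner software's call of detection, was 67.5% ± 4.68 (SD, n = 7) in BCB- blastocysts and 69.3% ± 1.05 (SD, n = 4) in BCB+ blastocysts (two-sided exact permutation test, p = 0.527). It was lowest on the arrays of mICSI BCB- replicate 4, with 59.4%, and replicate 2, with 62.9%. The 75th percentile of signal before normalisation had a median of 501 (range 244 to 1148) on BCB- arrays and 513 (range 374 to 556) on BCB+ arrays, and its log2 mean was 0.12 higher on BCB- arrays (two-sided exact permutation test, p = 0.785). RNA spike-ins, which had been added at extraction, averaged a log2 signal of 14.55 ± 0.27 (SD, n = 7) on BCB- arrays and 15.06 ± 0.54 (SD, n = 4) on BCB+ arrays (two-sided exact permutation test, p = 0.0576; adjusted over the 4 array measures, 0.230). The arrays were spread over 3 slides. On slide 1, replicates 1 and 2 of ICSI BCB+ shared the glass with the first 2 mICSI BCB- replicates. On slide 2, ICSI BCB+ replicates 3 and 4 lay beside the first 2 replicates of ICSI BCB-. The remaining 3 BCB- arrays were on slide 3, without a BCB+ array. Slide 2 was scanned on another day than the other 2 slides.

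BCB status of the oocyte took up 12.3% of the variation in log2 signal among the 11 blastocysts. Any division of so few arrays takes up part of the variation, so this share has a meaning only beside the other divisions. The variation between the 2 sides was set against the variation within them in a single ratio over all tested probes (pseudo-F), which was 1.26. All 330 ways of dividing the 11 arrays into 7 and 4 gave ratios from 0.771 to 1.48, with a median of 0.984, and 7 of the 330, the true one included, reached 1.26 (exact permutation test, p = 0.0212; the smallest p possible is 0.00303). With exchange of labels restricted to arrays that shared a slide, the true division had the highest ratio of 36 (exact permutation test, p = 0.0278, the smallest possible). The separation by BCB status was thus larger than that of most other divisions, but it was not the largest. It depended on single blastocysts. Without ICSI BCB+ replicate 4 the ratio was 1.09 (p = 0.242 by the same exact test) and without ICSI BCB+ replicate 2 it was 1.18 (p = 0.1). The p-values were 0.0619 without ICSI BCB- replicate 3 and 0.0571 without mICSI BCB- replicate 1. In the other direction, the ratio rose to 1.35 without mICSI BCB- replicate 4 (exact permutation test over 210 divisions, p = 0.00476). Leaving out any other array gave p-values from 0.0286 to 0.0429 by this test. Among the 7 BCB- arrays alone, the division into mICSI and ICSI gave a ratio of 1.14 and took up 18.6% of their variation. The median ratio of the 35 divisions into 4 and 3 was 0.961, and 8 of the 35 reached 1.14 (exact permutation test, p = 0.229; smallest possible 0.0286). Here too any division takes up part of the variation. The 2 ratios come from different numbers of arrays and were not compared with each other.

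**Figure D1:**
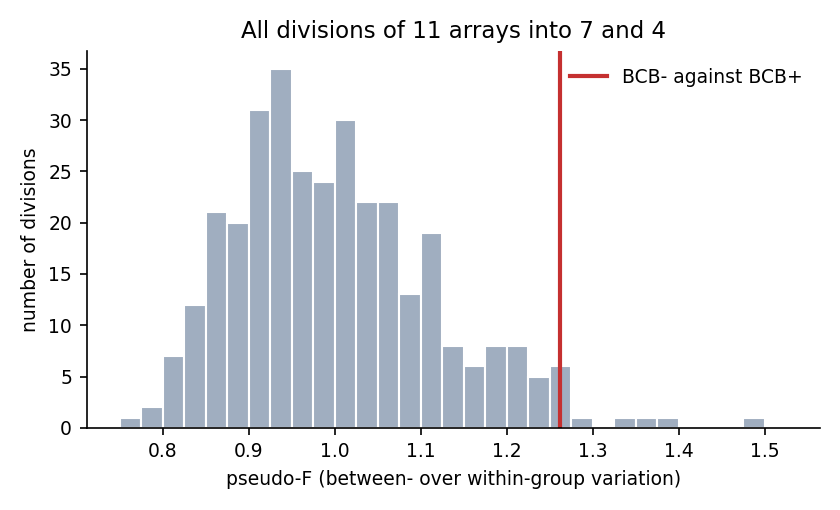
Histogram of the pseudo-F ratio (horizontal axis, between-group over within-group variation in log2 signal, no unit) over the 330 divisions of the 11 arrays into 7 and 4, with the number of divisions on the vertical axis. The red line marks BCB- against BCB+ at 1.26, in the upper tail of divisions that run from 0.771 to 1.48.

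The likeness between single blastocysts differed little by BCB status. The correlation of log2 signal across probes averaged 0.886 over the 21 pairs of BCB- blastocysts (range 0.840 to 0.916), 0.877 over the 6 pairs of BCB+ blastocysts (0.862 to 0.887) and 0.876 over the 28 pairs with 1 blastocyst of each kind (0.841 to 0.899). These ranges overlapped throughout. Within the BCB- side, a mICSI blastocyst and an ICSI blastocyst correlated at 0.885 on average (12 pairs), close to 0.884 for pairs of mICSI blastocysts (6 pairs), with 0.897 for pairs of ICSI BCB- blastocysts (3 pairs). Each of the 7 BCB- blastocysts had a higher mean correlation with the other BCB- blastocysts than with the BCB+ ones. Of the BCB+ blastocysts, replicates 2 and 4 were on average nearer to their own kind (0.883 against 0.879, and 0.875 against 0.862), whereas replicate 1 (0.872 against 0.878) and replicate 3 (0.877 against 0.885) were nearer to the BCB- blastocysts. Pairs share blastocysts and slides, so these correlations are descriptions and were not tested. The spread of single probes was no smaller on the pooled side. The median SD of log2 signal was 0.58 over the 4 BCB+ blastocysts and 0.69 over the 7 BCB- ones, with 0.53 for the 3 ICSI BCB- and 0.65 for the 4 mICSI BCB- blastocysts. An SD from few arrays tends to come out too low, so values from groups of different size are not directly comparable.

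At a false discovery rate of 0.05, 5 of 33149 probes differed between BCB- and BCB+ blastocysts, which was 0.0151% of those tested (limma, Benjamini-Hochberg adjustment over all probes tested). Signal was higher in BCB- blastocysts at 3 of them (0.00905% of probes tested) and lower at 2 (0.00603%). With slide as a fixed block 0 probes passed (2886 at an unadjusted p under 0.05), so none of the 5 described below, and with slide as a random block 4 of the 5 did. At the looser threshold of the study's methods, an unadjusted p under 0.01 with a fold change over 2, 624 probes were called, 1.88% of those tested. Of these, 435 were higher in BCB- blastocysts (1.31%) and 189 were lower (0.57%), so that 69.7% of the called probes were higher, whereas 45.99% of all tested probes were. An unadjusted p under 0.01 alone was met by 764 probes, 2.3% of those tested, and a p under 0.05 by 2903 probes, 8.76%. Called probes are referred to below in the sense of the looser threshold. All but 5 of them did not pass the false discovery rate.

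The share of called probes that were higher in BCB- blastocysts depended on the scaling of the arrays. With each array scaled to its 75th percentile, 64.1% of the called probes were higher in BCB- blastocysts, against 42.8% of all tested probes. With each array scaled to its spike-ins, 97.7% of the 651 called probes were higher, since the lower spike-in signal of BCB- arrays moved the median difference of all probes from -0.05 to 0.54 and put 84.9% of all tested probes on the higher side. The quantile normalisation used here gives every array the same distribution of signal, so the differences are relative to the other probes of the same blastocyst. Whether BCB- blastocysts held more RNA per unit of spike-in was tested once, as the log2 75th percentile less the spike-in signal. It was -5.52 on BCB- arrays and -6.14 on BCB+ arrays, a difference of 0.63 (two-sided exact permutation test, p = 0.227).

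The probe with the smallest p was EMPV1_17627, which was higher in BCB- blastocysts. Its log2 signal was 8.65, 9.72 and 8.46 in the 3 ICSI BCB- blastocysts and 9.28, 8.70, 8.77 and 9.77 in the 4 mICSI BCB- blastocysts. In the 4 ICSI BCB+ blastocysts it was 4.90, 4.22, 5.24 and 3.26. Every BCB- value lay above every BCB+ value, with a gap of 3.22 between the nearest ones, both above background, and the probe was well above background on all 7 BCB- arrays but on only 2 of the 4 BCB+ arrays, those of replicates 1 and 3. The means were 9.05 ± 0.54 (SD, n = 7) and 4.41 ± 0.87 (SD, n = 4), a measured log2 difference of 4.64 ± 0.41 (SE; limma, adjusted p = 0.00619), whose size is uncertain because 2 of the 4 BCB+ values were not above background. The 2 BCB- groups differed by 0.19 at this probe, mICSI above ICSI (95% confidence interval -0.97 to 1.34, limma, unadjusted p = 0.725).

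EMPV1_41366 was detected on all 7 BCB- arrays and on none of the 4 BCB+ arrays. Its log2 signal was 7.37, 6.32 and 6.05 in the ICSI BCB- blastocysts and 5.79, 6.52, 6.75 and 7.68 in the mICSI BCB- blastocysts. The BCB+ values of 3.37, 3.26, 2.49 and 2.39 were not well above background and are therefore bounds. The BCB- level was at least 4.90-fold higher than the BCB+ level, where the BCB+ side was set to the lowest signal that counted as well above background on each array (measured means 6.64 ± 0.68, SD, n = 7, and 2.88 ± 0.51, SD, n = 4; limma, adjusted p = 0.0151). The lowest and the highest of the BCB- values both came from mICSI blastocysts. The mICSI mean was 0.11 above the ICSI BCB- mean (95% confidence interval -0.99 to 1.21, limma, unadjusted p = 0.832).

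The third probe higher in BCB- blastocysts was detected on all 11 arrays. Its log2 signal was 9.76, 9.75 and 8.78 in the ICSI BCB- blastocysts and 9.93, 9.92, 9.54 and 9.84 in the mICSI BCB- blastocysts, against 7.17, 7.18, 7.26 and 7.54 in the BCB+ blastocysts. The means were 9.64 ± 0.41 (SD, n = 7) and 7.29 ± 0.17 (SD, n = 4), a log2 difference of 2.36 ± 0.25 (SE; limma, adjusted p = 0.0151). The 4 BCB+ blastocysts were close to each other, and 1 ICSI BCB- blastocyst, replicate 3, lay below the other 6 BCB- values but still 1.24 above the highest BCB+ value.

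EMPV1_06422 was the probe with the smallest p among those lower in BCB- blastocysts. In BCB+ blastocysts its log2 signal was 8.25, 8.51, 9.80 and 8.59. In ICSI BCB- blastocysts it was 4.04, 3.64 and 5.29, and in mICSI BCB- blastocysts 4.50, 5.22, 5.92 and 4.73. The probe was well above background on all 4 BCB+ arrays and on 3 of the 7 BCB- arrays, namely ICSI replicate 3 and mICSI replicates 2 and 3. The highest BCB- value lay 2.33 below the lowest BCB+ value, and both of these were above background. The means were 4.76 ± 0.78 (SD, n = 7) in BCB- and 8.78 ± 0.69 (SD, n = 4) in BCB+ blastocysts, a measured log2 difference of -4.02 ± 0.45 (SE; limma, adjusted p = 0.0185). Since 4 of the 7 BCB- values were not above background, the size of this difference is uncertain. The mICSI mean lay 0.77 above the ICSI BCB- mean, towards the BCB+ level (95% confidence interval -0.40 to 1.94, limma, unadjusted p = 0.174).

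EMPV1_41645, the other probe lower in BCB- blastocysts, was detected on every array and varied little among BCB+ blastocysts. Its log2 signal there was 9.25, 9.35, 9.22 and 9.51, against 6.96, 7.04 and 7.68 in the ICSI BCB- and 7.74, 7.82, 7.49 and 7.75 in the mICSI BCB- blastocysts. The means were 9.33 ± 0.13 (SD, n = 4) in BCB+ and 7.50 ± 0.36 (SD, n = 7) in BCB- blastocysts, which was 3.57-fold lower in the latter (log2 difference -1.84 ± 0.23, SE; limma, adjusted p = 0.0479). The nearest values were 1.39 apart, and the mICSI mean was 0.47 above the ICSI BCB- mean (95% confidence interval -0.09 to 1.03, limma, unadjusted p = 0.0921).

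**Figure D2:**
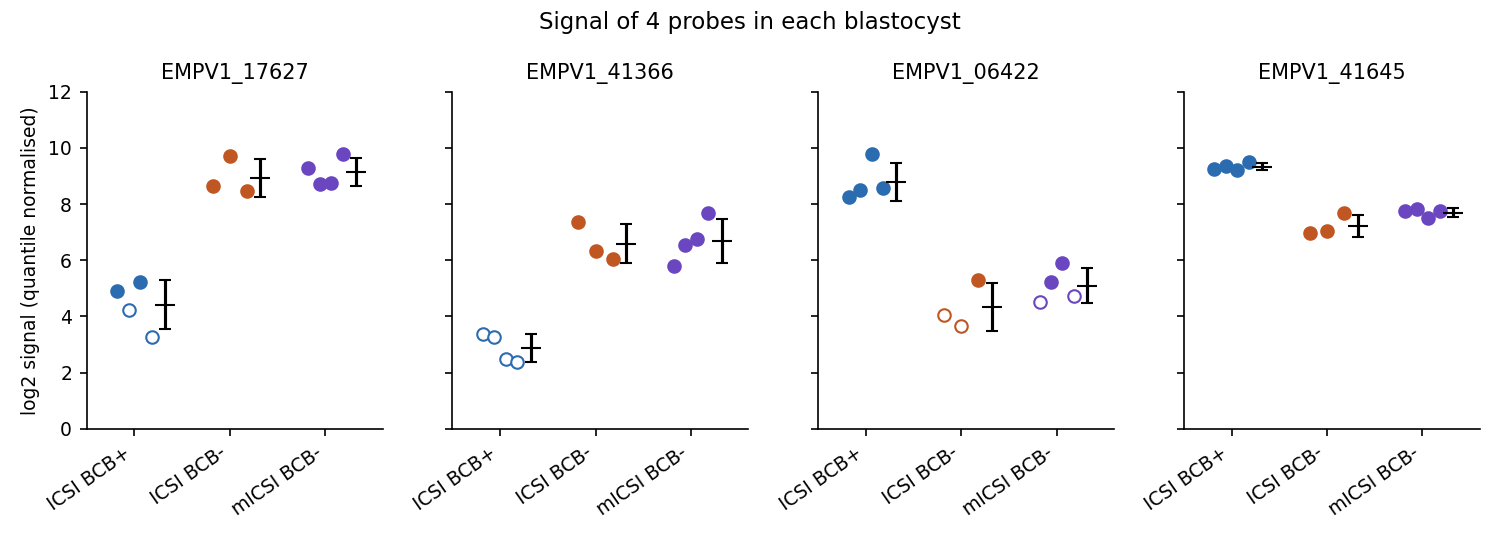
Log2 quantile-normalised signal (vertical axis) of EMPV1_17627, EMPV1_41366, EMPV1_06422 and EMPV1_41645 in each of the 11 blastocysts, by group (horizontal axis). Filled points were well above background and open points were not, and the bars give the mean ± SD of each group. The ICSI BCB- and mICSI BCB- points lie on the same side of the BCB+ points in every panel, with gaps of 3.22, 2.33 and 1.39 for EMPV1_17627, EMPV1_06422 and EMPV1_41645.

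The true division gave the largest mean difference of all 330 divisions at each of these 4 probes (exact permutation test, p = 0.00303, the smallest possible), which is how probes chosen for not overlapping would come out. At 575 probes (1.73% of those tested) all 7 BCB- values lay on one side of all 4 BCB+ values. Of these, 273 were higher (0.824%) and 302 lower (0.911%) in BCB- blastocysts. The counts are given without a test. Where a fold change over 2 was also required, 201 probes were higher (0.606%) and 105 lower (0.317%). Of the 624 called probes, 249 did not overlap between the groups (39.9%), 174 of the higher and 75 of the lower ones. At the other called probes at least 1 blastocyst lay within the range of the other side. All 4 named probes lost the false discovery rate threshold when slide was a fixed block in the fit, with adjusted p-values of 0.0561 for EMPV1_17627, 0.118 for EMPV1_41366, 0.0561 for EMPV1_06422 and 0.115 for EMPV1_41645 (limma), while the log2 differences were 4.68, 3.63, -4.43 and -1.94. With slide as a random block the adjusted p-values were 0.00599, 0.0154, 0.0191 and 0.0503 in the same order. With spike-in scaling EMPV1_17627 kept the threshold (0.0270), and EMPV1_41366 (0.0659), EMPV1_06422 (0.136) and EMPV1_41645 (0.524, log2 difference -1.20) did not. Leaving out 1 array at a time kept EMPV1_17627 below 0.05 throughout (adjusted p from 0.00574 to 0.0232), whereas EMPV1_41645 exceeded it in each of the 11 cases (0.0572 to 0.180). EMPV1_06422 exceeded it in 4 of the 11 cases (up to 0.0850, without ICSI BCB+ replicate 4) and EMPV1_41366 in 1, also without ICSI BCB+ replicate 4 (0.0587). With another background correction (normexp), the log2 differences were smaller, at 2.69 for EMPV1_17627, 1.04 for EMPV1_41366, -2.26 for EMPV1_06422 and -1.49 for EMPV1_41645, and EMPV1_41366 lost the threshold (adjusted p = 0.174).

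Called probes higher in BCB- blastocysts had a median log2 difference of 1.80, with the middle 50% of them between 1.43 and 2.37 and the largest at 4.82. Over 5-fold were 116 of the 435, and over 10-fold were 37. Detection on all 7 BCB- arrays was seen at 374 of them and on all 11 arrays at 284, while at 43 no BCB+ array was well above background, so that their measured folds are only nominal. The 189 lower probes had a median of -1.77, with the middle 50% between -2.71 and -1.35 and the largest at -5.08. Of these, 68 were over 5-fold, 22 over 10-fold, 158 were detected on all 4 BCB+ arrays and 106 on all 11, and at 13 no BCB- array was well above background. The higher and the lower probes thus had medians of nearly the same size and differed in number. The median over all tested probes was -0.05.

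Called probes were found at all levels of signal. When the tested probes were ranked by mean log2 signal and cut into 4 equal parts, 1.496% were called in the dimmest part, 1.68% and 2.34% in the next ones and 2.01% in the brightest. In each part more called probes were higher than lower in BCB- blastocysts, with 72 against 52 in the dimmest and 125 against 42 in the brightest. The SE of the difference, which sets how small a change could be called, had a median of 0.54 in the dimmest part and 0.36 in the brightest. Among the 22315 probes detected on every array 390 were called (1.75%), and among the other 10834 tested probes 234 were (2.16%).

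The next question was whether the called probes followed the origin of the oocyte in both BCB- groups alike. Both BCB- groups lay on the side of BCB+ that the pooling set, at medians of 1.86 for ICSI and 1.72 for mICSI among the higher probes, and of -1.75 and -1.86 among the lower ones. These 2 comparisons share the 4 BCB+ blastocysts, and the pooling chose the probes, so their likeness is fixed in part. The difference between the 2 BCB- groups uses no BCB+ array. Its median, mICSI less ICSI, was -0.10 over the higher called probes and -0.03 over the lower ones, beside 0.09 over all tested probes. The mICSI mean was the nearer of the 2 to BCB+ at 250 of the 435 higher probes and at 91 of the 189 lower ones, against 55.2% of all tested probes.

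At an unadjusted p under 0.05, the 2 BCB- groups differed at 34 of the 624 called probes (5.45%), 23 of the higher and 11 of the lower ones, beside 2052 of all tested probes (6.19%), and at none of the 624 at a false discovery rate of 0.05 (2 of all tested probes, 0.00603%; limma with 3 group means). The pooled fit counts a difference between the BCB- groups as spread and so disfavours probes that have one. When BCB+ was compared with the equally weighted mean of both BCB- groups instead, 659 probes were called, 530 of them shared with the 624, and the 2 BCB- groups differed at 112 of the 659 (17.0%), 2 of them at a false discovery rate of 0.05. This call and the test between the BCB- groups use the same estimate of spread. It therefore favours probes with little spread, at which a difference between the BCB- groups also passes more readily. The share of called probes that differed between these groups was thus below or above the background of 6.19% according to how probes were called. Neither share is free of the selection, so no conclusion is drawn from them. Few probes were shown to be alike. The 95% confidence interval of the difference between the BCB- groups lay within 2-fold in either direction at 41 of the 624 called probes (6.57%), against 18.7% of all tested probes, and the estimate itself exceeded 2-fold at 96 (15.4%), against 17.8%. The interval reached 1.28 log2 units to either side at the median called probe and 1.14 at the median tested probe. By the looser threshold the 2 BCB- groups differed at 332 probes, 1% of those tested.

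**Figure D3:**
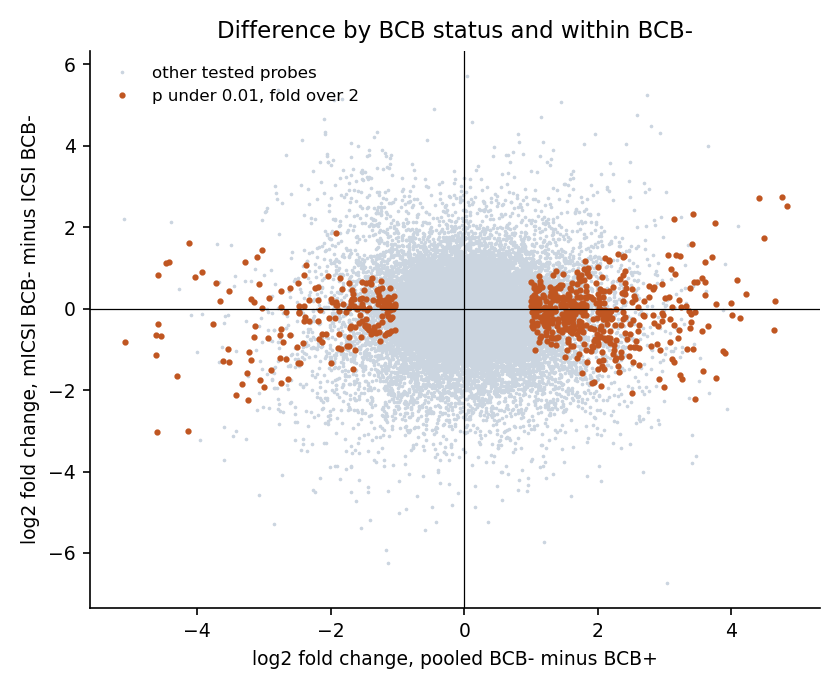
Each point is a tested probe, placed by its log2 fold change between pooled BCB- and BCB+ blastocysts (horizontal axis) and by the difference of mICSI BCB- from ICSI BCB- (vertical axis). The 624 called probes, in orange, lie beyond 1 on either side of the horizontal axis by the rule that called them and run from -5.08 to 4.82. On the vertical axis they spread around 0, with 96 of them beyond 1 in either direction.

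Presence or absence of signal seldom followed BCB status. Of the 43753 probes left after outlier marks, 22315 were well above background on all 11 arrays (51.0%), 6250 on none (14.3%) and 15188 on some (34.7%). Only 5 probes were detected on all 7 BCB- arrays and on no BCB+ array (0.0114%), and 16 on all 4 BCB+ arrays and on no BCB- array (0.0366%). The 5 probes of the first set had mean log2 signals of 6.16 to 7.24 in BCB- blastocysts and were at least 3.47-fold to at least 7.41-fold higher there, with a median bound of 4.90. These bounds hold for the background subtraction used here. EMPV1_41366 was one of them, and all 5 were among the called probes. At 3 of the 5 the BCB- groups differed at an unadjusted p under 0.05 (limma, 0.00275, 0.0165 and 0.0249). The 16 probes of the second set were dimmer, with mean log2 signals of 4.45 to 5.22 in BCB+ blastocysts, bounds of 1.00-fold to 1.65-fold and no bound over 1 at 1 of them, and 1 of the 16 was called. More probes were missing from at least 1 BCB- array than from at least 1 BCB+ array, on a side that had more arrays to be missing from. At 3814 probes (8.72%) all 4 BCB+ arrays but not all 7 BCB- arrays were well above background, against 602 (1.38%) the other way round, and 2100 of the 3814 (55.1%) were missing from no array other than mICSI BCB- replicates 2 and 4. Those are the arrays with the fewest probes above background, and their part in the counts by detection was not tested further. Allowing 1 exception on the dim side, 40 probes were detected on all BCB- and at most 1 BCB+ array, and 67 on all BCB+ and at most 1 BCB- array.

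Slides 1 and 2 each compared 2 BCB- with 2 BCB+ blastocysts and had no blastocyst in common, so that they gave separate readings of BCB status, on slide 1 through mICSI and on slide 2 through ICSI blastocysts. Slide, scan day on slide 2 and the kind of BCB- blastocyst cannot be told apart here. Each slide was filtered, normalised and fitted by itself. The filter still asked for detection on at least 3 arrays. A probe detected only on the BCB- or only on the BCB+ arrays of a slide was therefore not tested there. By the looser threshold 405 probes were called on slide 1 (1.44% of 28124 tested) and 1022 on slide 2 (3.52% of 29002), and 57.0% and 72.0% of them were higher in BCB- blastocysts. Among all probes tested on each slide, 53.5% and 41.2% were higher, so the share on slide 1 was near that of all probes. Neither slide had a probe at a false discovery rate of 0.05 (0 and 0), with 1988 and 4240 probes at an unadjusted p under 0.05 (limma). Over the 27019 probes tested on both slides the differences correlated at r = 0.0398 across probes, which are not independent replicates, and 50.7% had the same sign. The differences on the 2 slides were thus nearly unrelated over the probes tested on both.

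The called probes of one slide leaned somewhat further to the same side on the other. Of 210 probes called higher in BCB- blastocysts on slide 1, 142 were higher on slide 2 as well (67.6%, against 40.9% of all probes there), with a median of 0.55 beside -0.20 for all probes. Of 160 called lower on slide 1, 90 were lower on slide 2 (56.2%, against 59.1% of all probes). In the other direction, 440 of the 711 probes called higher on slide 2 were higher on slide 1 (61.9%, against 53.7% of all), and 159 of 275 called lower were lower (57.8%, against 46.3%). In 3 of the 4 sets the share was above that of all probes, and for probes lower on slide 1 it was not. Their medians on the slide that had not called them were small, 0.14 and -0.13 on slide 1 beside 0.04 for all probes and -0.16 on slide 2 beside -0.20. Probes called on both slides numbered 27, of which 18 had the same direction. These 18 were 4.86% of the 370 shared probes called on slide 1 and 1.83% of the 986 called on slide 2. Called in either direction were 3.52% of all probes tested on slide 2 and 1.44% of those tested on slide 1. No p is attached to these shares, since probes within a blastocyst are not independent.

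**Figure D4:**
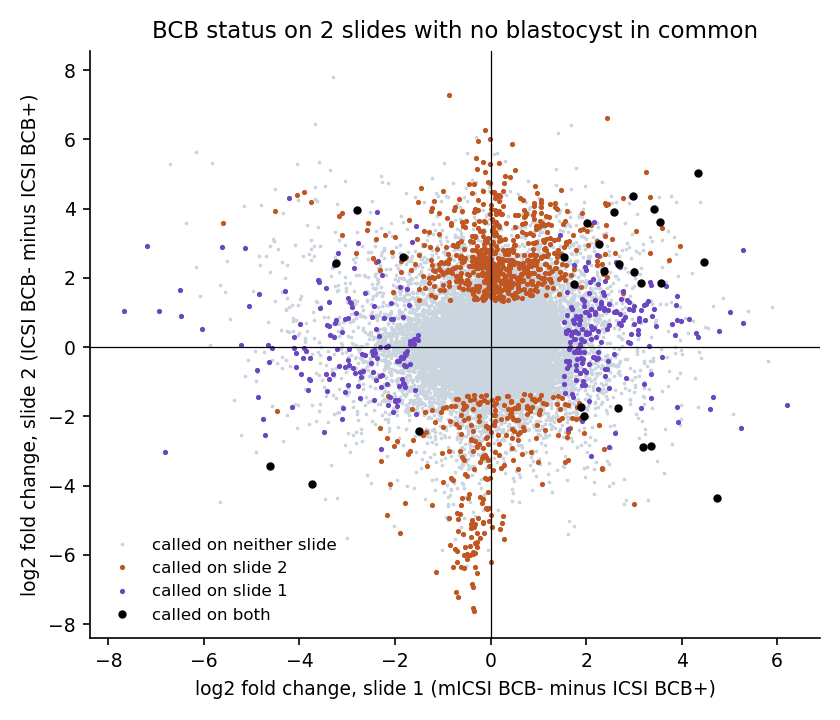
Each point is a probe tested on both slides, placed by its log2 difference between BCB- and BCB+ blastocysts on slide 1 (horizontal axis, 2 mICSI BCB- and 2 ICSI BCB+) and on slide 2 (vertical axis, 2 ICSI BCB- and 2 ICSI BCB+). Colours mark the probes called on slide 1, on slide 2 or on both. The cloud has no slope (r = 0.0398), and of the 27 black points 18 lie where both differences have the same sign.

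The 4 named probes had the same direction on both slides. In the values normalised over all 11 arrays, EMPV1_17627 was 4.43 higher in BCB- blastocysts on slide 1 and 4.93 higher on slide 2, and EMPV1_41645 differed by -1.52 and -2.36. EMPV1_41366 was higher on both slides against BCB+ values that were not above background, and EMPV1_06422 was lower on both, by -3.52 on slide 1, where 1 of the 2 BCB- values was above background, and by an unmeasured amount on slide 2, where neither was. They had been chosen for not overlapping over all 11 arrays, which fixes their direction on each slide. Fitted within a slide, with 2 arrays a side, EMPV1_17627 had adjusted p-values of 0.601 on slide 1 and 0.256 on slide 2, and EMPV1_41645 had 0.679 and 0.199. EMPV1_06422 had 0.601 on slide 1 and was too seldom detected to be tested on slide 2, and EMPV1_41366 was too seldom detected on either slide (limma).

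Each blastocyst was then read on probes that it had not helped to call. The array was left out, probes were called on the other 10 at the looser threshold, and the level of the left-out array at each called probe was placed on a scale from 0, the mean of the remaining BCB+ arrays, to 1, the mean of the remaining BCB- arrays. Probes called on few arrays carry chance error that falls more heavily on the mean of the smaller side, so an array with no difference by BCB status is not placed at the middle of this scale. With equal spread on both sides it is placed at the BCB- share of the remaining arrays, which was 0.6 for a left-out BCB- array and 0.7 for a left-out BCB+ array. Equal spread was not shown: the median SD was 0.58 over the 4 BCB+ and 0.69 over the 7 BCB- blastocysts. Both reference positions are therefore approximate. The median positions of the 3 ICSI BCB- blastocysts were 0.692, 0.898 and 0.742, and those of the 4 mICSI BCB- blastocysts were 0.782, 0.828, 0.657 and 0.685. All 7 lay above 0.6, towards the BCB- mean, the lowest by a small margin, and the mICSI and ICSI positions overlapped.

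The 4 BCB+ blastocysts were at 0.760, 0.412, 0.641 and 0.279 (replicates 1 to 4). Replicates 2 and 4 lay below 0.7, towards the BCB+ mean, and replicate 1 lay above it. Replicate 3 was below 0.7 by a small margin, and its side cannot be told, since 0.7 holds only for equal spread. No error was attached to these positions, since probes within a blastocyst are not independent, and none was tested. The number of calls also depended on which BCB+ blastocyst was left out. Without BCB+ replicate 1, 14 probes passed a false discovery rate of 0.05, and without replicate 3, 15 passed. Without replicate 2 there were 8, and without replicate 4 there was 1. Leaving out a BCB- blastocyst gave 2 to 6, the lowest without ICSI replicate 1. The looser threshold called 433 probes without BCB+ replicate 4 and 825 without BCB+ replicate 1. Unlike the positions, these counts come from arrays filtered and normalised anew without the left-out array.

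**Figure D5:**
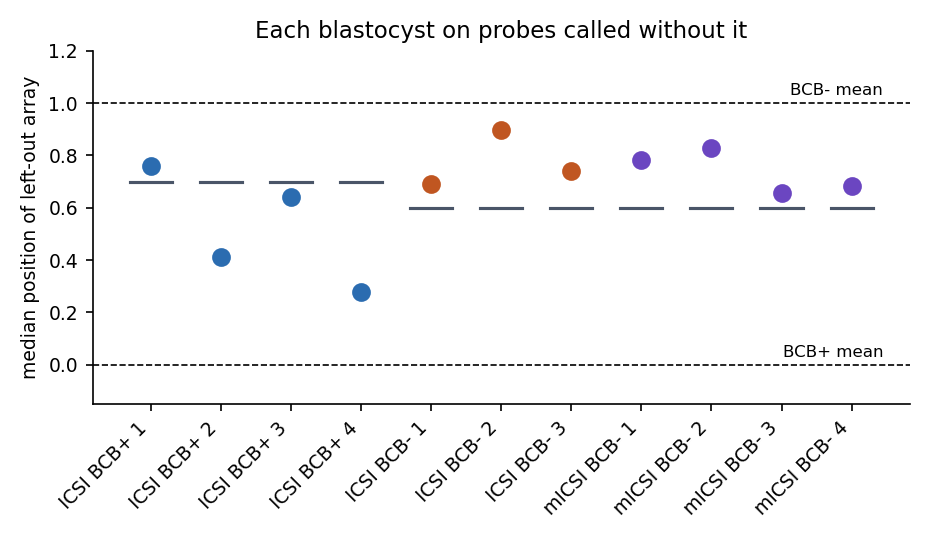
Median position of each left-out blastocyst (vertical axis, no unit; 0 is the mean of the other BCB+ arrays and 1 the mean of the other BCB- arrays) over the probes called without it, by array (horizontal axis). The short grey lines mark where an array with no difference by BCB status is placed if both sides have equal spread, 0.7 for BCB+ and 0.6 for BCB- arrays. All 7 BCB- points lie above their lines, and of the BCB+ points only replicate 1, at 0.760, lies above its line.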

How the data were processed

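Total RNA of single pig blastocysts was amplified, labelled with Cy3 and hybridised to 1-colour Agilent arrays (11 arrays on 3 slides). The authors deposited scanner files of Agilent Feature Extraction 11.0.1.1, whose intensity values (processed signal) were background-subtracted and spatially detrended but not normalised between arrays, with low signals replaced by the software's estimate. The well-above-background and outlier marks deposited beside them were read as a score of 0 or 1. Here each probe that was not a control had a single entry, so none were averaged. The 42 outlier-marked probes were left out, and signals were quantile-normalised, set to at least 1 and taken to log2. A probe was tested if its signal reached the 20th percentile and lay well above background on at least 3 arrays. BCB status was fitted in limma 3.58.1 (R 4.3.3; lmFit and eBayes, 9 residual degrees of freedom) with Benjamini-Hochberg adjustment over 33149 probes, after testing on simulated data. The number of arrays limits the precision. Exact permutation tests used all divisions of the arrays (Python 3.11.15, numpy 2.4.6, scipy 1.17.1).

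Named probes were the 2 higher and the 2 lower in BCB- with the smallest p among those over 2-fold, not overlapping between groups and detected on every array of the brighter group. The remaining probe that passed the false discovery rate was described after its values were seen. The comparison, its members and all lists were chosen with earlier results of these data known, and the readings between slides and on left-out arrays were chosen after values were seen. Lists of developmental and metabolic genes and of cell type markers could not be applied, since probe numbers were not paired with genes in the sources used here (0 matched). A bound for an undetected group was set at its own signal or, where higher, each array's dimmest signal that was well above background.

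Alternatives were 75th percentile and spike-in scaling (8 of 10 spike-in sequences), normexp with an offset of 50 on median spot signals, 3 other filters, a floor of 10, outlier-marked probes kept, slide as a fixed block, as a random block (statmod 1.5.0) or fitted within slides, replicate number as a block, the methods' t-test (unpaired, equal variances), equal weights for both BCB- groups, a trended robust prior, and leaving out each array.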

Additional observations from a re-analysis of the deposited data

How the results depend on the processing

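The number of called probes, 624, stayed within 1.5 times under every alternative over all 11 arrays (428 to 659), but the probes changed. Of the 624, 359 were called with slide as a fixed block, 360 under spike-in scaling and 444 with the replicate block. No named probe changed direction. The 5 probes at a false discovery rate of 0.05 became 2 under spike-in scaling (1 of the 5 among them). With probes detected on all arrays there were 2, both among the 5, and the rest of the 5 were not tested there. With slide as a fixed block there were 0 (2886 at an unadjusted p under 0.05 by limma), and 5 by the methods' t-test without the block. Within slide 1 and within slide 2, where 405 and 1022 probes were called, there were 0. The share of called probes higher in BCB- blastocysts, 69.7%, was 64.1% with 75th percentile scaling, 97.7% with spike-in scaling, 63.9% with normexp, 65.6% without a filter, 77.9% with slide as a fixed block and 57.0% within slide 1. The pseudo-F under spike-in scaling was 1.38 (exact permutation test, p = 0.182). The 34 called probes at which the BCB- groups differed became 73 with spike-in scaling and 19 with probes detected on all arrays, where fewer probes were tested. With the 20th percentile as the criterion of detection, 2 probes in place of 16 were detected on BCB+ arrays alone. The causes were not tested.

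Replicate numbers did not pair the arrays. Deviations from group means correlated between -0.0833 and 0.0811 over 10 pairs with the same number, none above 0.1, and 5 of the 11 arrays correlated best with their own number. With the replicate block, 0 probes passed the false discovery rate (2820 at an unadjusted p under 0.05 by limma), 653 were called and 63.2% of them were higher in BCB- blastocysts, against 47.0% of all tested probes.

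Leaving out 1 array at a time gave 1 to 15 probes at the false discovery rate, 433 to 825 called probes, 61.2% to 72.1% of them higher, pseudo-F from 1.09 to 1.35, 24 to 70 called probes at which the BCB- groups differed, 5 to 17 probes detected on BCB- arrays alone and 20 to 45 on BCB+ arrays alone. The difference in the log2 75th percentile ran from -0.0724 to 0.30 and that in detected probes from -2.54 to -0.411 percentage points. The spike-in difference ran from -0.76 to -0.32, the first without ICSI BCB+ replicate 1 (exact permutation test, p = 0.00833).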
